A study of Mus musculus with 4 samples.

Results

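The genes of the mitochondrial oxidative phosphorylation system were followed in mouse liver on 4 Affymetrix arrays. A gene was a member where its single symbol in the array's annotation was that of a numbered Nduf, Sdh, Uqcr, Cox4 to Cox8 or Atp5 gene, and the probe set whose mean signal was highest stood for each gene. This gave 81 of 18194 genes. By symbol, 35 were counted under complex I, 4 under complex II, 8 under complex III, 17 under complex IV and 17 under complex V. Of the 81, 75 had a mean signal above the filter level of 120.0, the median of all probe sets. The genes were picked by name and not by their values.

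Livers came from C57BL/6J mice 2 months old. Group P+P had received phosphate-buffered saline (PBS) in both of its exposures. Group E+P had received ethylbenzene, an aromatic solvent, first and PBS second. Group P+E had received PBS first and ethylbenzene second, and group E+E ethylbenzene both times. Each ethylbenzene dose was 7 mmol per kg into the peritoneum, given as 2 injections 24 h apart in the first exposure. The second exposure came 7 days later and the livers were taken 5 h after it. RNA of 3 mice was pooled for P+P and for E+P, and RNA of 5 mice for P+E and for E+E, and each pool was measured on 1 array. There were thus no replicates, so differences have no test against variation between mice, and pool size cannot be told apart from the second exposure. In whole liver, fewer cells of a type and less RNA per cell cannot be told apart either.

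Oxidative phosphorylation takes place in the inner mitochondrial membrane. Complexes I and II pass electrons from NADH and succinate to coenzyme Q, complex III passes them on to cytochrome c, and complex IV to oxygen. Complexes I, III and IV pump protons across the membrane, and complex V, the ATP synthase, uses their return flow to make ATP. Hepatocytes are rich in mitochondria and use this ATP for the synthesis of glucose, urea and bile. Most subunits are encoded in the nucleus, and many of those genes are known targets of the transcription factors NRF1 and GABP (an ETS family factor), with coactivators of the PGC-1 family.

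Many of the subunit genes were lower together on the arrays taken after ethylbenzene, so promoters of 4 members, selected after their values had been seen, are shown with the letters that NRF1 and ETS factors are known to bind. Each window runs from 250 bases before to 50 bases within the transcript start given by RefSeq (GRCm38.p6), 5′ to 3′ on the gene's strand. Capitals mark the NRF1 core GCATGCG, which overlaps its own reverse complement here as CGCATGCG, and the ETS core CCGGAAG, present here as its reverse complement CTTCCGG. Atp5k (subunit e of complex V, chr5:108434350-108434649, minus strand), Sdhd (a membrane anchor of complex II, chr9:50603800-50604099, minus strand) and Uqcrc1 (a core protein of complex III, chr9:108936398-108936697, plus strand) had lower signals after ethylbenzene. Cox6a1 (the liver form of a complex IV subunit, chr5:115348909-115349208, minus strand) had second-exposure ratios near 0 by its chosen probe set and holds both motifs as well.
Atp5k: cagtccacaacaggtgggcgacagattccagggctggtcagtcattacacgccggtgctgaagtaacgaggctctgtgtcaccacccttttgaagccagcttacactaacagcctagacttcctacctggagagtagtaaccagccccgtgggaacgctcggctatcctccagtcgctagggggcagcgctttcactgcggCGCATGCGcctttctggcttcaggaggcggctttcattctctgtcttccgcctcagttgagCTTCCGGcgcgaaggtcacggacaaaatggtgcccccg
Sdhd: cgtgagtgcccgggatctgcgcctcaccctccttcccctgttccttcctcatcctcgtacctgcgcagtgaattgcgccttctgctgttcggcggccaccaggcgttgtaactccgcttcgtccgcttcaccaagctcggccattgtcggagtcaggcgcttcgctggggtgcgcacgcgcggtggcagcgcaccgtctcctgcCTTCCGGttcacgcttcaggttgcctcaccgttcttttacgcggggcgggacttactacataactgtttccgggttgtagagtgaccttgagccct
Uqcrc1: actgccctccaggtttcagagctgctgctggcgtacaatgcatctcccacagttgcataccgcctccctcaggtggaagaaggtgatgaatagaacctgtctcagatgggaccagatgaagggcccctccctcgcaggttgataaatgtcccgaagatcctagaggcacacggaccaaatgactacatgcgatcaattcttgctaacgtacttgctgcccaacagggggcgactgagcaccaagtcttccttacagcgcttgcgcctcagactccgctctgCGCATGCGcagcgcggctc
Cox6a1: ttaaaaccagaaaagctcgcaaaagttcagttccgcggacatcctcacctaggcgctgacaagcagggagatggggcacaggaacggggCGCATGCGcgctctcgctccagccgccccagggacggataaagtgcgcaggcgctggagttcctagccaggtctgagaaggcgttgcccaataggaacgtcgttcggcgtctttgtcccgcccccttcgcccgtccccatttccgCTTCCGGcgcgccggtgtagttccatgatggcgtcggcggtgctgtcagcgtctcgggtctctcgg

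With the start base counted as 0, the NRF1 letters begin at base -49 in Atp5k, -161 in Cox6a1 and 31 in Uqcrc1, and the ETS letters at base 12 in Atp5k, -46 in Sdhd and -16 in Cox6a1. RefSeq windows were matched for 66 of the 81 members, 71 windows in all. Both strands were searched. The NRF1 core was present in 10 of the 71 windows (14.1%) and in 3.58% of all 32851 windows of this length. The ETS core was present in 17 (23.9%) against 8.86%. The core AAGATGG of YY1, a zinc finger factor, was present in 10 (14.1%) against 6.34%. CCAAT was present in 29 (40.8%) against 37.4%, and TATAAA in 9 (12.7%) against 13.6%. Among the members past the filter, the 21 with an NRF1 or ETS core had median log2 ratios of -0.26 and -0.18 in the 2 second-exposure comparisons given below, and the 41 without had -0.20 and -0.22. The order of these medians differed between the comparisons.

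The P+P array stood apart in some of its controls. Its 18S ribosomal RNA control signal was 1872 against 122 to 182 on the others, its Actb control signal 8928 against 22081 to 30540, and its 3′ to 5′ ratio of Pcx controls 23.5 against 6.15 to 12.0. The 3′ to 5′ ratios of the other controls were less far apart, with 4.55 against 3.48 to 3.84 for Actb and 1.06 against 0.91 to 0.97 for Gapdh. Results that rest on P+P are therefore given beside those of E+E over E+P, which does not use that array. The hepatocyte markers (7 of 8 measured) were all above the filter level on every array, with summed signals of 865923 to 931100. The markers of other cells were not alike: the signals of 6 pancreatic acinar markers summed to 420 for P+P, 330 for E+P, 5421 for P+E and 5167 for E+E, and those of 6 neutrophil markers, in this order of arrays, to 1085, 665, 3965 and 6464. The same sums were 12149, 19385, 11205 and 12990 for 9 Kupffer cell markers and 3409, 3010, 2033 and 2066 for 3 erythroid markers. All 6 acinar markers were higher on both ethylbenzene arrays than on both PBS arrays. The neutrophil sums were carried by S100a8 (116, 151, 1506 and 2348) and S100a9 (125, 70.3, 2025 and 3183), while Camp (219, 130, 48.9 and 137) and Ltf (183, 13.3, 62.4 and 116) were highest on P+P, and the erythroid sums were carried by Alas2. No marker list had all its genes below the filter level on any array. Their part in the differences of the subunit genes was not tested.

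For the second exposure, P+E over P+P compares mice that had first received PBS, and E+E over E+P those that had first received ethylbenzene. Pairs of ratios below are in this order. Signals are quantile-normalized, in arbitrary units, and ratios are on the log2(signal + 43.2) scale. Of the 75 members, 66 had a ratio below 0 in the first comparison and 62 in the second, where 55.5% and 54.2% of the 11514 genes tested did. Their median was -0.23 and -0.19, against -0.07 and -0.05 over all genes tested. These medians stand for signals 1.17-fold and 1.14-fold lower after ethylbenzene. The middle 50% of the members lay between -0.33 and -0.09 in the first comparison and between -0.28 and -0.07 in the second. With the 6 members under the filter counted too, 68 and 65 of all 81 were below 0 and both medians were -0.19. Most single ratios were small, with the exceptions named next, and the share below 0 was larger than over all genes tested.

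**Figure D1:**
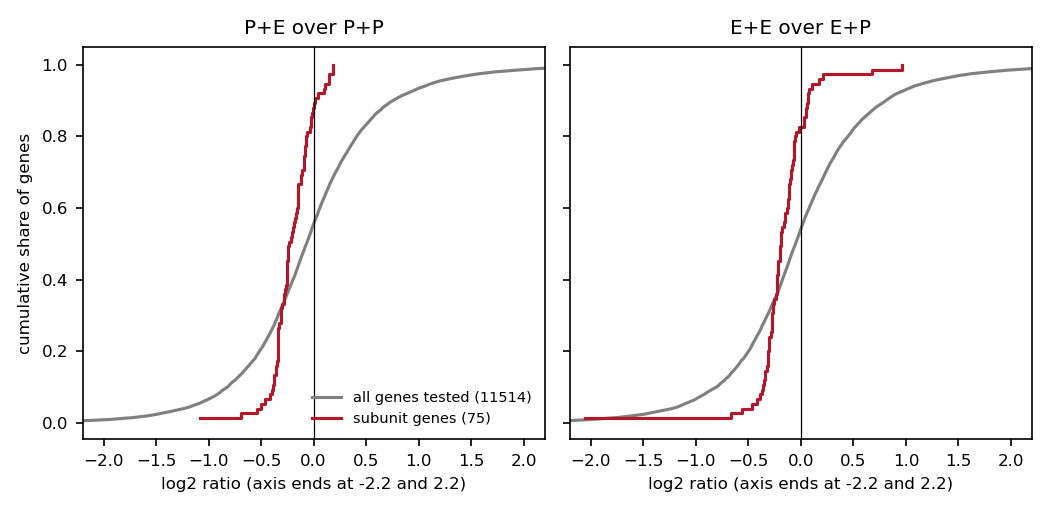
Cumulative share of genes (vertical axis) by log2 ratio (horizontal axis, cut at -2.2 and 2.2) for P+E over P+P and E+E over E+P. The red steps are the 75 subunit genes and the grey line the percentiles of all 11514 genes tested; the red line crosses 0 with 66 and 62 genes behind it, and it is steep because the members lie close together.

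Few members passed a fixed rule of size, which describes pairs of arrays and not the treatments. At least 1.5-fold lower were 2 of 75 in P+E over P+P (Ndufb10 and Cox8c) and 2 in E+E over E+P (Cox7a1 and Cox7c), where the background was 17.1% and 16.7%. At least 1.5-fold higher were 0 and 2 (Ndufb1 and Cox8c), where it was 13.9% and 15.2%. No member passed the rule the same way in both comparisons, while 6.57% of the genes tested were lower by that size in both and 6.46% were higher. These counts describe single pairs of arrays. Among the 1407 genes above the 95th percentile of signal, a level chosen after the data were seen, the medians were -0.09 and -0.11. The 70 members among them had -0.24 and -0.19. Below 0 were 64 and 60 of these 70, against 60.1% and 64.0% of the 1407.

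The order of the 4 arrays was similar in most members. Both ethylbenzene arrays were below both PBS arrays in 55 of the 75, where 31.1% of all genes tested showed this. They were above both in 2, against 2567 of the 11514 genes tested. Without P+P, both ethylbenzene arrays were below E+P in 58 of the 75, where 41.9% of all genes were. Of the 4 signals, that of P+P was highest in 55 members, that of E+P in 13, that of P+E in 4 and that of E+E in 3. Over the 11514 genes tested, these counts were 3299, 2933, 2569 and 2713. E+E was lowest in 47 members, P+E in 16, E+P in 8 and P+P in 4, against 3407, 3155, 2518 and 2434 of the genes tested. The geometric mean signal of the members was 11255 for P+P, 10423 for E+P, 9723 for P+E and 9210 for E+E. Over all genes tested it was 734.2, 723.4, 713.5 and 713.5, so the order was similar there and the steps were smaller. In complexes I, III, IV and V the geometric mean was lower at each step of that order as well, and in complex II it was highest on E+P. Both second-exposure ratios were below 0 in 57 members (37.4% of all genes tested) and both above 0 in 4 (3191 of the 11514 genes tested). They had opposite signs in 14 members (3994 of the genes tested).

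**Figure D2:**
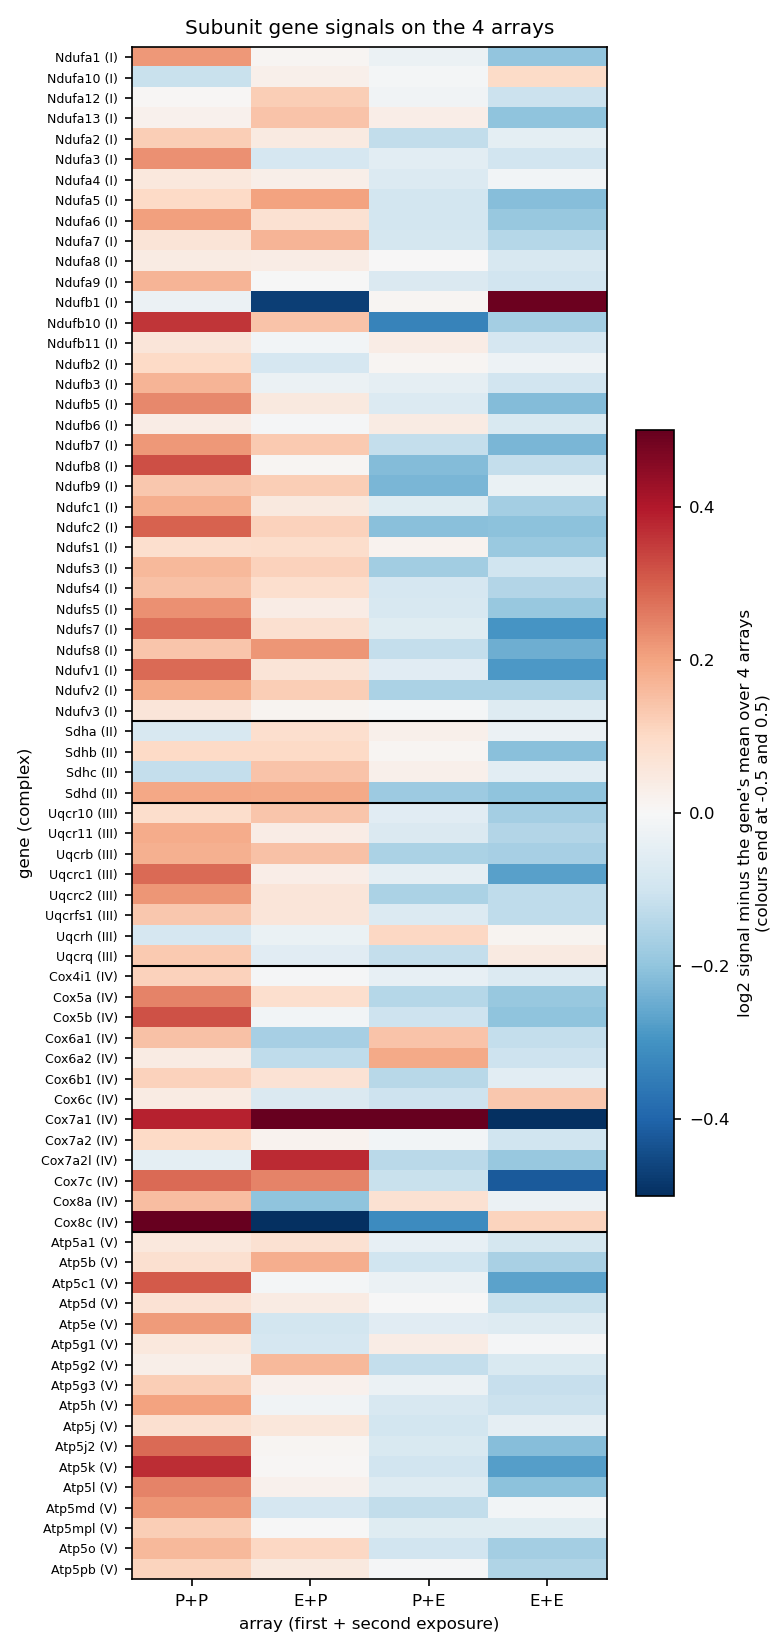
Signal of each of the 75 subunit genes past the filter on the 4 arrays, as log2(signal + 43.2) minus the gene's own mean over the arrays. Rows are genes in order of complex, columns are arrays, and colours end at -0.5 and 0.5. Most rows are red under P+P and blue under E+E, and Cox7a1 and Cox8c reach the end of the scale.

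Complex I, the NADH dehydrogenase, had medians of -0.24 and -0.22 over its 33 members past the filter, with 29 and 30 of them below 0. The background for such counts, here and for the other complexes, was 55.5% and 54.2% of all genes tested. The 6 measured core subunits, which carry the flavin and the iron-sulfur clusters or belong to their peripheral arm, had -0.34 and -0.32, and the 27 accessory subunits -0.23 and -0.16. All 6 core subunits were below 0 in both comparisons (37.4% of all genes tested) and had both ethylbenzene arrays below both PBS arrays (31.1%). Ndufv1, the subunit that binds NADH and the flavin, had signals of 16238 for P+P, 13919 for E+P, 12794 for P+E and 10901 for E+E. Its ratios were -0.34 and -0.35, and its 2 other probe sets past the filter were at -0.29 and -0.37, and at 0.22 and -0.21. So 1 of the 3 probe sets differed in sign in the first comparison.

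Ndufs7, an iron-sulfur subunit next to the coenzyme Q site, had signals of 9756, 8506, 7711 and 6551 in the same order of arrays, with ratios of -0.34 and -0.37. Ndufs8, its neighbour with further iron-sulfur clusters, had 10869, 11516, 9091 and 8319, at -0.26 and -0.47, the lowest of complex I in E+E over E+P by the chosen probe sets. In that comparison its 5 other probe sets past the filter ranged from -0.45 to 1.28, with 2 of them above 0. Ndufv2, another iron-sulfur subunit, had 12657, 12099, 9942 and 9942, at -0.35 and -0.28. In each of these 3 genes the ethylbenzene arrays were the lower pair. Ndufs3 had 9549, 9246, 7556 and 7962, at -0.34 and -0.21. Ndufs1, the largest iron-sulfur subunit, had 7447, 7466, 7107 and 6172, at -0.07 and -0.27, with most of its range on E+E.

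The accessory subunits of complex I held the widest range. Ndufb10, a subunit of the membrane arm, was lowest by the mean of both ratios. It had signals of 15519 for P+P, 13368 for E+P, 9595 for P+E and 10748 for E+E, with ratios of -0.69 and -0.31. Ndufb8, also of the membrane arm, had 10162, 8172, 6984 and 7476, at -0.54 and -0.13, and Ndufc2 had 12599, 11114, 8870 and 8882, at -0.50 and -0.32. The P+P signal was the highest of the 4 in all 3 genes. Probe sets of 2 of them did not go the same way: a second probe set of Ndufb8 had 0.48 and 0.01, and 1 of 3 others of Ndufc2 had 0.35 and 0.65. Both were dim, with means of 8.28 and 7.44 on the log2 scale against 12.99 and 13.33 for the chosen probe sets. Ndufb10 had 1 probe set.

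Ndufb1 was highest of complex I, with signals of 491, 350, 506 and 721 and ratios of 0.04 and 0.96. Its range came from the pair E+P and E+E, since P+P and P+E were nearly equal. Ndufa10, an accessory subunit on the matrix side, had 7421, 8149, 7962 and 8556, at 0.10 and 0.07, and was among the few members highest on E+E. Ndufa13, also known as GRIM-19, had 23074, 25116, 23272 and 19792. Its ratios of 0.01 and -0.34 placed it among the 3 members with the lowest difference between the comparisons, at -0.36. Ndufa9, an accessory subunit near the coenzyme Q site, had 6068, 5380, 5121 and 5045, at -0.24 and -0.09. Ndufb9 had 30303, 30120, 23588 and 27018, at -0.36 and -0.16. Ndufb11 (-0.03 and -0.07), Ndufb6 (0.00 and -0.07) and Ndufv3 (-0.07 and -0.08) had ratios near 0 in both. The other 15 accessory subunits lay between -0.33 (Ndufb7) and -0.02 (Ndufa12) in P+E over P+P, and between -0.41 (Ndufa5) and 0.06 (Ndufb2) in E+E over E+P. Ndufa4, counted with the accessory subunits by its symbol, is given with complex IV below.

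Complex II, the succinate dehydrogenase that also serves in the citric acid cycle, had medians of 0.01 and -0.25 over its 4 genes. Sdha, the flavoprotein that oxidises succinate, had signals of 10730 for P+P, 12016 for E+P, 11557 for P+E and 11114 for E+E, at 0.11 and -0.11. Sdhb, the iron-sulfur subunit, had 23901 on both PBS arrays, 22470 on P+E and 19292 on E+E, at -0.09 and -0.31. Sdhc, a membrane anchor, had 7008, 8417, 7755 and 7346, at 0.15 and -0.20. Sdha and Sdhc were lowest on P+P and highest on E+P. Their other probe sets past the filter did not go the same way: those of Sdha had -0.30 and -0.26, and 1.44 and -0.91, and that of Sdhc had 0.00 and 0.33. The Sdha probe set with 1.44 was dim, with a mean of 7.64 on the log2 scale. The one with -0.30 had 13.34, against 13.48 for the chosen probe set. The directions of these genes, and with them the median of the complex, therefore depended on the probe set. Sdhd, the other anchor, was the lowest of the complex with 7547, 7529, 5812 and 5734, at -0.37 and -0.39. Its PBS arrays nearly coincided, as did its ethylbenzene arrays, and its second probe set had ratios of -0.64 and -0.83.

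**Figure D3:**
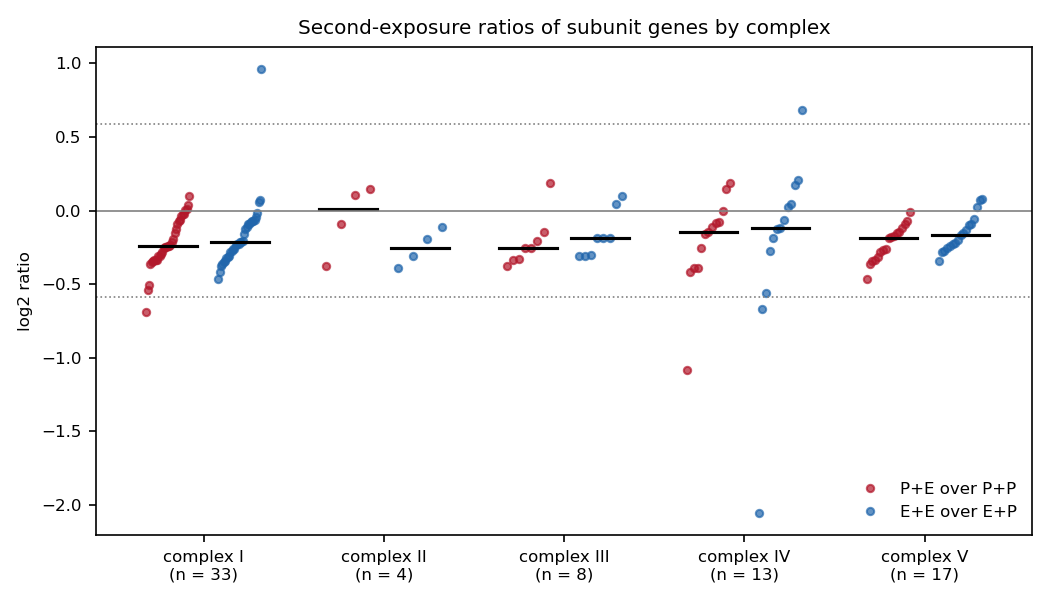
Log2 ratios of the 75 subunit genes by complex, red for P+E over P+P and blue for E+E over E+P, with 1 point per gene, a black bar at the median and dotted lines at 1.5-fold. Most points lie between 0 and the lower dotted line; the points beyond the dotted lines are Ndufb10, Ndufb1, Cox7a1, Cox7c and Cox8c.

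Complex III, the cytochrome bc1 complex, had medians of -0.26 and -0.19 over 8 genes, with 7 and 6 below 0. Uqcrc1, a core protein, had signals of 7539 for P+P, 6337 for E+P, 5987 for P+E and 5118 for E+E, at -0.33 and -0.31. Uqcrc2, the other core protein, had 26088, 23373, 20064 and 20516, at -0.38 and -0.19. Uqcrfs1, the Rieske iron-sulfur protein, had 17968, 17076, 15585 and 14972, at -0.20 and -0.19. In all 3 the ethylbenzene arrays were below the PBS arrays, though a second probe set of Uqcrc2 had 0.13 and -0.07. Uqcrb, a small subunit near the coenzyme Q site, was lowest by the mean of both ratios, with 50070, 48955, 39694 and 39431, at -0.33 and -0.31. Its PBS arrays lay close together and well above its ethylbenzene arrays, and its second probe set had -0.31 and 0.01. Uqcrh, the hinge protein, went the other way by its main probe set, with 12293, 12717, 13991 and 13125, at 0.19 and 0.05. Its second probe set had -0.22 and -0.50, so its direction depended on the probe set. The small subunits Uqcr10 (-0.15 and -0.31), Uqcr11 (-0.26 and -0.18) and Uqcrq (-0.25 and 0.10) were below 0 except Uqcrq in the second comparison.

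Complex IV, cytochrome c oxidase, had medians of -0.14 and -0.12 over its 13 members past the filter. These include isoforms restricted to other tissues and Cox7a2l, an assembly factor of respiratory supercomplexes, and without them 9 of 9 genes were below 0 in P+E over P+P and 6 of 9 in E+E over E+P. Cox5a, a matrix-side subunit, had signals of 20814 for P+P, 18591 for E+P, 15879 for P+E and 15348 for E+E, at -0.39 and -0.28. Cox5b, which binds zinc, had 38569, 30659, 28840 and 26929, at -0.42 and -0.19. The 4 other probe sets of Cox5b past the filter had between -0.18 and -0.02 in the first comparison and between -1.05 and -0.05 in the second. All 5 were thus below 0, but in the first comparison the probe set with the highest signal was the lowest. The value of -1.05 came from a dim probe set, with a mean of 7.88 on the log2 scale against 14.92 for the chosen one.

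Cox4i1, a regulatory subunit that binds ATP, had 32025, 29506, 28732 and 28239, at -0.16 and -0.06. Cox7a2 had 38079, 36006, 35208 and 33194, at -0.11 and -0.12, and Cox6b1, on the intermembrane side, had 35720, 34668, 29932 and 31797, at -0.25 and -0.12. These 3 were highest on P+P. Cox6a1 had 52924, 42614, 52774 and 44048, at -0.00 and 0.05, and by this probe set its arrays paired by the first exposure and not by the second. Its other probe set, also bright with a mean of 14.10 on the log2 scale, did not show this pairing. It had -0.18 and -0.03, with -0.21 in E+P over P+P and -0.05 in E+E over P+E. Cox6c had 24432, 22537, 22093 and 26029, at -0.14 and 0.21, and Cox8a 4445, 3465, 4207 and 3909, at -0.08 and 0.17. These signals lay in no order of the second exposure. Cox7c had signals close to the filter level on every array, at 177, 172, 124 and 92.0, and ratios of -0.39 and -0.67. Cox7a2l had 4190, 5635, 3948 and 3800, at -0.08 and -0.56, with E+P above the other 3 arrays.

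The isoforms of complex IV known from other tissues had low signals. Cox6a2, a heart and skeletal muscle form, had 359 for P+P, 314 for E+P, 402 for P+E and 321 for E+E. Cox7a1, also a muscle form, had 176, 202, 206 and 15.9, so its ratio of -2.06 in E+E over E+P rests on a signal far below the filter level, and with that signal set to the filter level it was -0.59. Cox8b, a form of muscle and brown fat, did not pass the filter, with 35.1, 72.1, 169 and 260, and was higher on both ethylbenzene arrays. Cox4i2, Cox6b2 and Cox7b2 did not pass either, with signals from 10.3 to 141, from 10.4 to 172 and from 30.9 to 102. Beside these values, the summed signal of 11 muscle markers was 741, 1088, 4290 and 1022, with 10 markers at or above the filter level on P+E and 1 to 4 on the other arrays. For 5 adipocyte markers it was 757, 947, 2850 and 2635, with 1, 1, 3 and 1 of them at or above the filter level. Most of that sum was Fabp4 (595, 851, 2441 and 2492), and the brown fat marker Ucp1 was at 36.7, 38.5, 15.2 and 12.5. The part of such cells in the isoform signals was not tested.

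Cox8c, a form known from testis, had 1384, 521, 631 and 861. Its ratios of -1.08 and 0.68 had opposite signs, and its other probe set, below the filter, had 0.99 and -1.74, the reverse of each. Ndufa4, once assigned to complex I and now to complex IV, was counted under complex I here because of its symbol. It had 11370, 11164, 10443 and 10829, at -0.12 and -0.04. Ndufa4l2, its relative induced by hypoxia, was also counted under complex I and did not pass the filter, with 25.2, 219, 40.7 and 110. Of the members just outside the filter, Cox8b had a mean signal of 112 and Ndufa4l2 of 79.9. Just inside were Cox7a1 at 125 and Cox7c at 138. The lowest of all was Ndufb4 at 22.5.

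**Figure D4:**
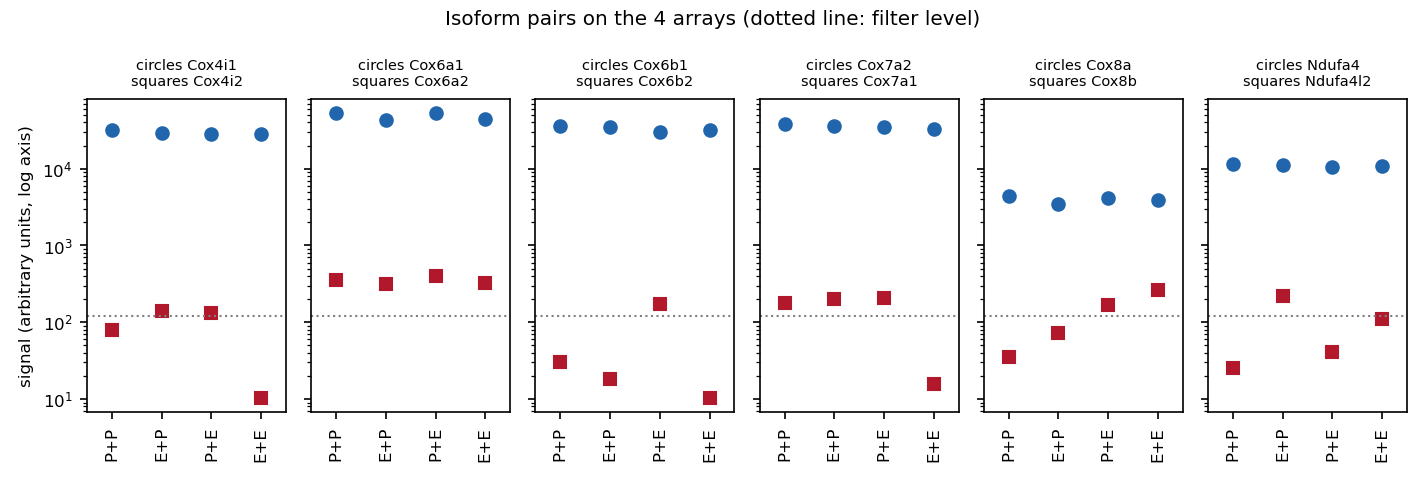
Signals of 6 isoform pairs on the 4 arrays, on a log axis in arbitrary units, with the liver or general form as blue circles, the tissue-restricted or hypoxia form as red squares and the filter level of 120.0 as a dotted line. The circles stay nearly level across arrays and the squares scatter around the dotted line; heights of different probe sets are not comparable with each other.

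Complex V, the ATP synthase, had medians of -0.18 and -0.16 over its 17 genes, of which all were below 0 in P+E over P+P and 14 in E+E over E+P. The 5 genes of the F1 part, the catalytic head with the central shaft that turns in it, had -0.18 and -0.16. The 12 genes of the membrane part and outer stalk had -0.22 and -0.17. Atp5a1, the alpha subunit, had signals of 22684 for P+P, 23037 for E+P, 21257 for P+E and 20564 for E+E, at -0.09 and -0.16. Atp5b, the catalytic beta subunit, had 33311, 35720, 29449 and 28188, at -0.18 and -0.34, the lowest of the complex in E+E over E+P. Atp5c1, the gamma subunit that turns inside the head, had 27699, 22225, 21940 and 18611, at -0.34 and -0.26. In all 3 the ethylbenzene arrays were the lower pair, and in Atp5c1 the P+P signal stood above the rest. Other probe sets past the filter had 0.51 and 0.07, and -0.25 and -0.19, for Atp5a1, and -0.43 and 1.39 for Atp5c1. That of Atp5c1 was dim, with a mean of 7.80 on the log2 scale against 14.45 for the chosen probe set.

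Atp5k was lowest of complex V by the mean of both ratios, with 21548, 16747, 15606 and 13783, at -0.46 and -0.28. Both its other probe sets were below 0 as well, at -0.83 and -0.32, and at -0.28 and -0.27. Atp5o, which joins the head to the stalk, had 8009, 7690, 6683 and 6340, at -0.26 and -0.28. Atp5j2, Atp5l and Atp5h, subunits of the membrane part and stalk, had -0.36 and -0.22, -0.31 and -0.23, and -0.28 and -0.09. The 3 genes that encode the same mature proton-carrying ring subunit did not go alike. Atp5g1 had 12639, 11491, 12523 and 12159, at -0.01 and 0.08, while Atp5g2 was at -0.15 and -0.24 and Atp5g3 at -0.15 and -0.13. Atp5md, a small membrane subunit, had 31586, 25536, 24905 and 26835, at -0.34 and 0.07, and P+P stood above the other 3 arrays. Atp5d (-0.07 and -0.15) and Atp5e (-0.27 and 0.03) of the F1 part, and Atp5j (-0.17 and -0.10), Atp5pb (-0.12 and -0.20) and Atp5mpl (-0.18 and -0.06) of the outer stalk and membrane part, were below 0 except Atp5e in the second comparison.

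The first exposure was compared before PBS (E+P over P+P) and before ethylbenzene (E+E over P+E). These ratios share arrays with the second-exposure ratios, so their errors go together. The members had medians of -0.08 and -0.06, against -0.01 and -0.00 over all genes tested. Below 0 were 58 and 56 of 75, where the background was 51.9% and 50.1%, and 41 were below 0 in both, where it was 25.5%. At least 1.5-fold lower were 1 in each comparison, Cox8c (background 8.77%) and Cox7a1 (10.5%), and at least 1.5-fold higher were 0 and 0 (7.78% and 10.9%). The members lowest by the mean of both first-exposure ratios were Cox7a1 (0.16 and -2.08), Cox8c (-1.34 and 0.42), Cox6a1 (-0.31 and -0.26) and Atp5c1 (-0.32 and -0.24). Highest were Cox7a2l (0.42 and -0.05), Ndufa10 (0.13 and 0.10), Ndufb9 (-0.01 and 0.20) and Sdhc (0.26 and -0.08). Of these 8 genes, Cox6a1, Atp5c1 and Ndufa10 kept 1 sign in both by the chosen probe sets. The other probe set of Cox6a1 had the same signs, at -0.21 and -0.05. That of Atp5c1 had -1.35 and 0.47, and that of Ndufa10 -0.12 and -0.47, though both were dim, with means of 7.80 on the log2 scale. A bright second probe set of Ndufb9, with a mean of 14.35, had -0.23 and -0.14.

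The difference between the second-exposure ratios, E+E over E+P minus P+E over P+P, described whether the first exposure went with another response to the second, and it holds the error of all 4 arrays. Its median over the members was 0.03. It was highest in Cox8c, Ndufb1 (0.92) and Atp5md (0.41), and lowest in Cox7a1, Cox7a2l (-0.48) and Ndufa13. The middle 50% of the members lay between -0.08 and 0.15, a width similar to the size of the median ratios themselves. For Cox7a2l the chosen probe set stood alone: its other probe sets past the filter had second-exposure ratios of 0.03 and -0.12, and of -0.07 and -0.03.

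Members measured by several probe sets showed how far a ratio depended on the probe set. For 44 members more than 1 probe set was past the filter, 116 in all, and the pooled SD between probe sets of a gene was 0.35 in P+E over P+P and 0.36 in E+E over E+P. This spread is larger than the median ratio, so the sign of a single member is uncertain. The SD counts dim and bright probe sets alike, so it is not the spread of the chosen, brighter ones alone. For example, a Uqcrq probe set with a mean of 7.68 on the log2 scale had 1.92 in E+E over E+P. The 72 probe sets that were not chosen to represent a gene had medians of -0.16 and -0.14, and 55 and 53 of them had the sign of the chosen one. Of these 72, 53 and 52 were below 0, as were most members, so many signs would match without agreement gene by gene. In the first-exposure comparisons, E+P over P+P and E+E over P+E, 46 and 40 of the 72 had the sign of the chosen one. Probe sets of 1 gene share the same RNA and are not replicates.

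Genes around the complexes were read from lists chosen with earlier results of these data known. Of 47 assembly factors 43 were past the filter, with medians of -0.26 and -0.29. Below 0 were 32 and 34 of these 43, where 55.5% and 54.2% of all genes tested were. At least 1.5-fold lower were 9 and 5 of the 43, where the background was 17.1% and 16.7%, and at least 1.5-fold higher were 3 and 1 (13.9% and 15.2%). Coa6, a copper chaperone of complex IV, had signals of 5108 for P+P, 5432 for E+P, 3061 for P+E and 2611 for E+E, at -0.73 and -1.04. Timmdc1 and Ndufaf4, assembly factors of complex I, had -0.94 and -1.74, and -1.36 and -0.51. Sco2, another copper chaperone of complex IV, was higher after ethylbenzene with 1314, 1232, 3525 and 3563, or 2.63-fold and 2.83-fold. Further copper chaperones of complex IV were below 0, with Cox17 at -0.23 and -0.85, Sco1 at -0.14 and -0.16, and Cox11 at -0.20 and -0.32.

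The 19 genes of electron transfer and coenzyme Q synthesis had medians of -0.08 and -0.03. Cycs, which encodes cytochrome c, had 28586, 24432, 22225 and 19923, at -0.36 and -0.29, and Cyc1, the cytochrome c1 of complex III that the symbol rule leaves out, was at -0.28 and -0.19. Coq8a, an atypical kinase of coenzyme Q synthesis, had 2716, 3741, 8853 and 7892, at 1.69 and 1.07. The 13 citric acid cycle enzymes had 0.07 and -0.07. Among them Fh1 (fumarase, 0.82 and 0.97) and Cs (citrate synthase, 0.40 and 0.41) were above 0, and Idh3a (a subunit of isocitrate dehydrogenase, -0.41 and -0.51) was below. The 7 nucleotide and phosphate carriers and related genes past the filter, of 18 listed, had -0.32 and -0.19, and the outer membrane channel gene Vdac1 had -0.55 and -0.38, though 2 of its 5 probe sets were above 0 in both. All 76 mitochondrial ribosomal protein genes were past the filter, with medians of -0.16 and -0.14. Below 0 were 49 and 54 of these 76, where 55.5% and 54.2% of all genes tested were. Of the subunits encoded in mitochondrial DNA 1 was measured, ND5 of complex I, with 145878, 146400, 149976 and 136592, at 0.04 and -0.10. The 8 of 10 HIF targets past the filter had 0.19 and -0.11, and 2 of the 10 are members by symbol.

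The regulators of mitochondrial biogenesis had ratios from -2.99 to 2.22. Of 19 listed, 17 were past the filter, with medians of -0.39 and -0.22. At least 1.5-fold lower in both comparisons were 4 of 17 (background 6.57%), and at least 1.5-fold higher in both were 3 (6.46%). Esrra, a nuclear receptor that acts with PGC-1 coactivators, had signals of 1015 for P+P, 918 for E+P, 487 for P+E and 407 for E+E, at -0.998 and -1.10, and both ratios were below 0 by both of its probe sets. Ppargc1a, which encodes PGC-1alpha, had 380, 331, 222 and 45.0, at -0.67 and -2.08. Ppargc1b, its close relative, had 691, 1017, 413 and 90.7, at -0.69 and -2.99. The E+E signals of both lay below the filter level, and with those set to it the second ratios were -1.20 and -2.70. Polg2, the accessory subunit of the mitochondrial DNA polymerase, had 914, 962, 296 and 321, at -1.50 and -1.47.

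Higher after ethylbenzene were Nrip1, a corepressor of nuclear receptors, Gabpb1, the beta subunit of GABP, and Pprc1, another PGC-1 relative. Nrip1 had 735, 826, 2029 and 2370, at 1.41 and 1.47, and all 6 of its probe sets were above 0 in both. Gabpb1 had 60.8, 244, 440 and 881, at 2.22 and 1.69, where the first ratio was 1.57 with the P+P signal set to the filter level. Pprc1 had 492, 394, 900 and 1301, at 0.82 and 1.62. Tfam, which packs and transcribes mitochondrial DNA, was at -0.51 and -0.64. Nrf1 had 393, 328, 307 and 356, at -0.32 and 0.11, and Gabpa, the DNA-binding subunit of GABP, had 1438, 1331, 1299 and 1410, at -0.14 and 0.08. Nrf1 and Gabpa, whose products bind the letters marked in the promoters, thus had opposite signs in the 2 comparisons, while Esrra, Ppargc1a, Ppargc1b, Nrip1 and Gabpb1 had the same sign in both.

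**Figure D5:**
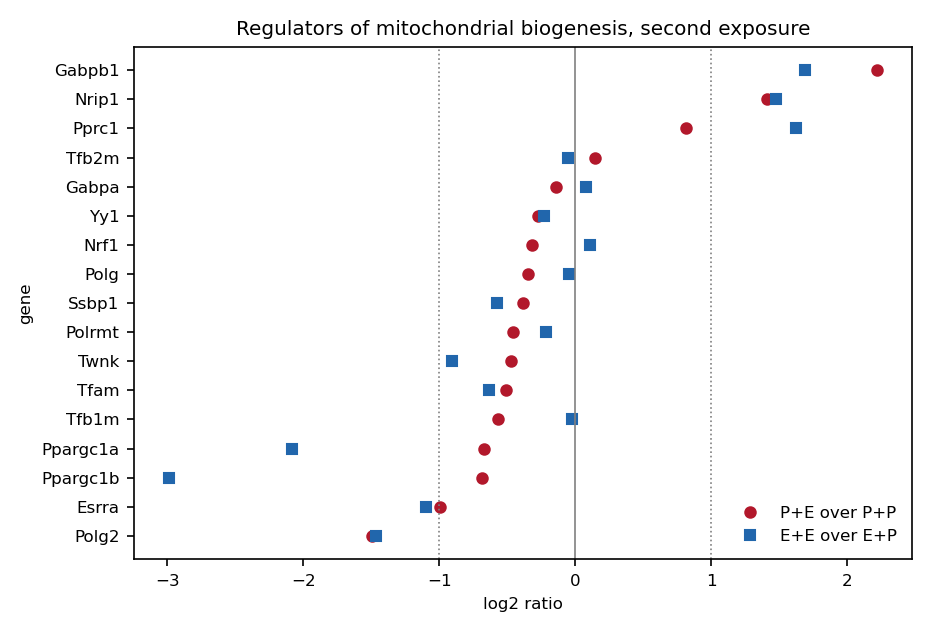
Log2 ratios of the 17 regulators of mitochondrial biogenesis past the filter, red circles for P+E over P+P and blue squares for E+E over E+P, with dotted lines at 2-fold. Gabpb1, Nrip1 and Pprc1 lie to the right in both comparisons and Polg2, Esrra, Ppargc1b and Ppargc1a to the left; the outer points of Gabpb1, Ppargc1a and Ppargc1b rest on 1 signal below the filter level.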

How the data were processed

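Liver RNA pools of 4 groups were each measured on 1 array, with groups read from the titles. The deposited intensities are linear probe set signals of 45101 probe sets; the software that summarised the probes is not given in the sources used here. Their mean after trimming 2% at each end was 500.0 on every array, so the authors had scaled them, while medians ran from 129.9 to 153.1. The intensities were quantile-normalized and expressed as log2(signal + 43.2), 43.2 being their 25th percentile. This scale understates differences of low signals.

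Gene symbols came from the array's annotation, updated through a RefSeq table (GRCm38.p6): 34958 had 1 gene symbol, 932 several and 9147 none listed, and 64 were controls. Each gene kept its probe set of highest mean signal, and 11514 of 18194 genes reached the filter level. Named genes were core subunits, isoform pairs and the highest and lowest members by mean ratio or difference; Ndufb8, Ndufc2, some further members, the subgroups within complexes and the genes named from other lists were singled out after their values were seen. The members and lists were chosen with earlier results of these data known. With 1 array per group no p-value was computed, the number of arrays limits the precision, and a fixed size of 1.5-fold was used. Alternatives were the scaling, pseudocounts of 16 and 100, the filter, the probe sets kept and the members kept. The filter at the 95th percentile and the count without P+P were chosen later, with the data in view. The steps were tested on simulated data. Python 3.11.15, numpy 2.4.6, pandas 2.3.3, scipy 1.17.1 and matplotlib 3.10.9 were used.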

Additional observations from a re-analysis of the deposited data

Results flagged for a closer look

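The second-exposure ratios of Cox7a1, a muscle form of a complex IV subunit, had opposite signs in mice given PBS first (0.19) and in mice given ethylbenzene first (-2.06), a difference of -2.24. Its signal on E+E was 15.9, far below the filter level. Those of Cox8c, a testis form of another complex IV subunit, also had opposite signs (-1.08 and 0.68), a difference of 1.76. With 1 array per group neither difference was tested.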

How the results depend on the processing

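The alternatives kept from 56 to 81 members, against 75 in the main run. The medians over all members kept stayed within 0.1 of the reported value under every alternative run. They ranged from -0.31 to -0.18 for P+E over P+P and from -0.24 to -0.13 for E+E over E+P. For E+P over P+P they ranged from -0.14 to -0.08, for E+E over P+E from -0.07 to -0.05, and for the difference of ratios from 0.02 to 0.08. Of the medians by complex under the alternatives, 154 stayed within 0.1 and 6 moved further. Of the 1.5-fold counts in the lists of other genes, 377 stayed within 1.5 times and 71 moved further or to or from 0. The 1.5-fold counts of the members are small, and several moved by over 1.5 times. At a common 75th percentile 4 members were lower in P+E over P+P. With a pseudocount of 16 the lower counts were 1 in E+E over E+P and 0 in E+E over P+E, and with a pseudocount of 100 it was 1 in E+E over E+P. Without a filter, P+E over P+P had 2 higher, E+E over E+P 4 higher and 4 lower, E+P over P+P 2 higher and 2 lower, and E+E over P+E 2 higher and 3 lower. With the filter at the 75th percentile, E+E over E+P and E+E over P+E had 0 lower. With the mean of all probe sets E+P over P+P had 1 higher. Without probe sets of the _s, _x and _a types, which can match several transcripts, P+E over P+P had 1 higher, E+E over E+P 4 higher, E+P over P+P 3 lower, and E+E over P+E 1 higher and 4 lower. Without tissue-restricted and related genes, P+E over P+P had 1 lower, E+E over E+P 1 higher and 1 lower, and both first-exposure comparisons 0 lower. With the filter at the 95th percentile, P+E over P+P had 1 lower, E+E over E+P 0 higher and 0 lower, and both first-exposure comparisons 0 lower. The filters and exclusions change which genes are counted. So do the pseudocount of 16 and the mean of all probe sets, each of which left 74 members. The cause of the other moves was not tested. Among ratios of at least 1.5-fold, E+E over E+P turned its sign in Cox8c (-0.53 with the mean of all probe sets) and in Cox7c (0.38 without the _s, _x and _a types, from a probe set below the filter). Of 1308 values of named genes, 1260 moved by less than the pooled SD between probe sets (0.31 to 0.36), 46 moved more and these 2 turned. That SD is larger than the median ratios of the members. Turns of smaller ratios were not counted as turns. For example, Uqcrh had second-exposure ratios of -0.22 and -0.50 without the _s, _x and _a types. Running without a filter or with that at the 75th percentile cannot change the value of a gene, so the 168 values of each could not move. No paired analysis was possible because each group had 1 array, and no array of a group could be left out in turn. Signals near the filter level, as in Cox7a1 and Cox7c, limit what a ratio can show.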

Other observations

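Some subunit genes share probe sets with close relatives and were no members for that reason. The probe set shared by Ndufs6 and Ndufs6b had signals of 8014 for P+P, 7818 for E+P, 8025 for P+E and 8285 for E+E, with second-exposure ratios of 0.00 and 0.08. The brighter probe set shared by Ndufa11 and Ndufa11b, of complex I as well, had 3713, 3387, 3010 and 3016, at -0.30 and -0.17. Of those shared by Ndufb4 and its relatives Ndufb4b and Ndufb4c, one had 10279, 9631, 8699 and 8408, at -0.24 and -0.20, and the other was at -0.10 and 0.11. Which of the related genes gave these signals cannot be told apart.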
